A study of Mus musculus with 26 samples.

Results

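The cytosolic ribosomal protein genes were examined in haematopoietic stem cells (HSCs) of the mouse. They were taken by symbol, as the Rpl and Rps genes with a number, Rplp0 to Rplp2 and Rpsa. Of 80 rows with such a symbol among 23416 genes, 77 reached an RPKM of at least 1 in at least 5 of the 26 libraries: 31 of the small subunit (Rps and Rpsa) and 46 of the large subunit (Rpl and Rplp). RPKM counts reads per unit of gene length and per unit of library size. The lowest of the 77 was Rpl39l, at RPKM of at least 1 in 6 libraries. The 3 rows left out were Rpl3l, which reached 1.54 RPKM in 1 library, and Rpl26 and Rpl10l, which reached at most 0.142 and 0.0542 RPKM.

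The ribosome of the cytosol is built from a small subunit, which reads the messenger RNA, and a large subunit, which joins amino acids. Each ribosomal protein is normally needed once per ribosome, except for the stalk proteins Rplp1 and Rplp2. Their RNAs carry a pyrimidine tract at the 5' end (the TOP motif), through which their translation responds to mTORC1. HSCs are known for a low and tightly held rate of protein synthesis, and loss of 1 allele of several of these genes causes Diamond-Blackfan anaemia. Mammalian genomes also carry many processed pseudogenes of ribosomal protein genes, intron-less copies whose sequence can be almost that of the parent.

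The libraries were made by Smart-Seq2, a full-length RNA-seq protocol for few cells, from HSCs that had been stained and sorted from bone marrow. By the genotype label there were 5 control, 7 JAK2V617F, 7 Ezh2 loss and 7 libraries labelled "JAK2V17F + Ezh2 loss", called double mutant here. JAK2V617F is the constantly active kinase of myeloproliferative neoplasms, and Ezh2 is the histone H3 lysine 27 methyltransferase of the Polycomb repressive complex. The sources used here do not give the promoter or Cre line behind each allele, the age, sex or strain of the mice, the number of cells, or whether replicates were separate animals, so p-values measure the spread between these libraries, which may be technical. Replicates are numbered in deposition order.

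Library titles came in 2 forms. In 15 titles the number stood before the group code (number-first: control replicates 1 to 4, JAK2V617F 1 and 3, Ezh2 loss 3 and 4, and the double mutants 1 to 7). In 11 the number stood after it (number-last: control 5, JAK2V617F 2 and 4 to 7, and Ezh2 loss 1, 2 and 5 to 7). What the forms stand for is not given. Depth was estimated from the steps between RPKM values. It was 14.2 to 29.2 M reads (M stands for 10 to the power of 6) in number-first and 7.8 to 18.2 M in number-last libraries. The estimate is rough, with narrow support in some libraries. In Ezh2 loss replicate 6, for example, 100 genes matched the total used and 87 the next best. All 10 HSC markers (among them Kit, Procr and Slamf1) had a mean of at least 1 RPKM in each genotype of each title form. Of the markers of other cell types, those of neutrophils reached the highest sums. The sum of 10 markers (Camp, Ngp, S100a8 and others) was 43.7 to 388 RPKM in number-first controls and 47.0 to 52098 in double mutants, with Lcn2 and Retnlg at 0 in each of these controls and no marker at 0 throughout the double mutants. With bulk libraries, fewer cells of a type and less RNA per cell cannot be told apart.

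The level of most ribosomal protein genes followed the title form. The forms were compared by the mean of the differences within JAK2V617F and within Ezh2 loss. By that mean, 53 of 77 genes were higher in number-first libraries and 4 were lower, with 20 not passing (limma, adjusted p under 0.05). That is 74% of the 77, against a background of 8.18% of the 12116 genes tested (5.69% higher and 2.48% lower). The median difference was 1.55 on the log2(RPKM + 1) scale, against 0.15 over all genes tested. In JAK2V617F alone 48 of 77 genes were higher and 3 lower, with 470 of the 12116 called. In Ezh2 loss alone 47 were higher and 2 lower, with 301 of the 12116 called. Across all genotypes, 44 of 77 genes were higher in every number-first library than in any number-last library (background 1.21%), and 4 were lower in every one (background 0.545%). Genotype and title form overlap in part, so every genotype comparison was made within 1 form.

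**Figure D1:**
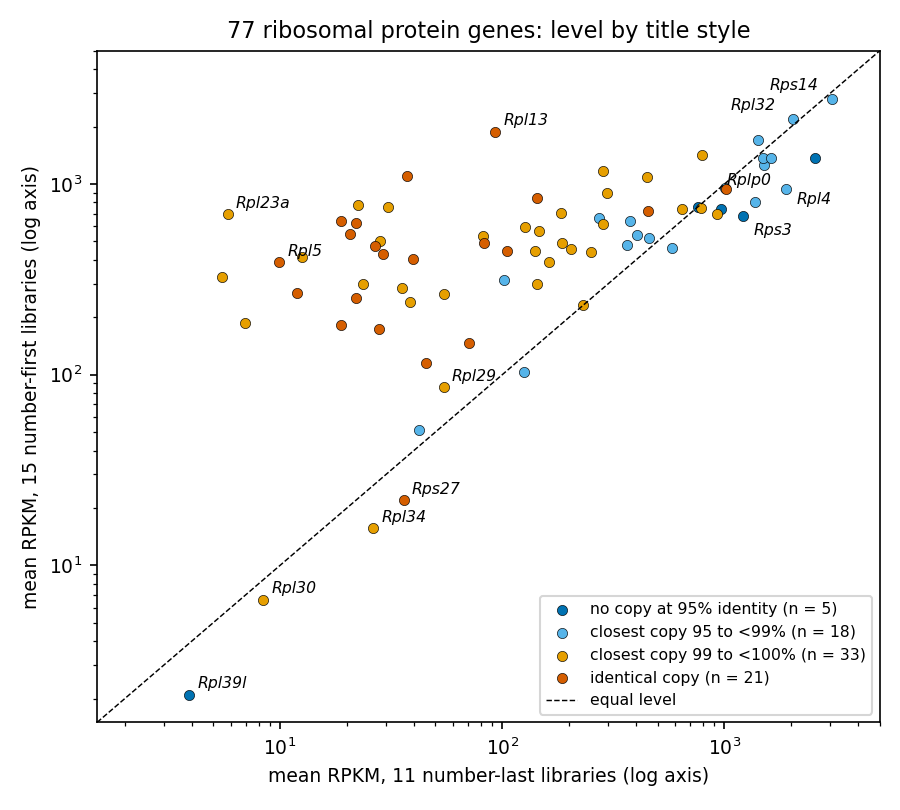
Mean RPKM of each of the 77 ribosomal protein genes in 15 number-first libraries (vertical, log axis) against 11 number-last libraries (horizontal, log axis), with 1 point per gene, coloured by the closest annotated copy of its coding sequence. Genes such as Rps14 and Rpl32 lie near the dashed line of equal level, while Rpl23a, Rpl5 and Rpl13 lie far above it.

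Of the 10 genes with the largest excess in number-first libraries, 7 were of the large subunit, as were 46 of all 77 genes. Whether these shares differ was not tested. Rpl23a, a protein near the exit of the peptide tunnel, was at 464 to 1101 RPKM in the 15 number-first libraries, with a median of 647. In the 11 number-last libraries it was at 1.99 to 13.2 RPKM, with a median of 4.54. The ranges lay far apart, and the difference was 7.22 (SE 0.22, limma adjusted p = 3.19e-19). Rpl5, which binds 5S rRNA and, with Rpl11, the p53 regulator Mdm2, was at 299 to 457 RPKM against 7.21 to 14.1, a difference of 5.32 (SE 0.18, adjusted p = 3.01e-18). Rpl11 was at 413 ± 106 (SD, n = 15) against 12.6 ± 4.11 RPKM (SD, n = 11), with a difference of 5.21.

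Rpl13, the third highest gene of the number-first libraries at 1882 ± 352 RPKM (SD, n = 15), was 44th of 77 in the number-last libraries at 93.2 ± 12.9 RPKM (SD, n = 11). The other genes among these 10 were Rpl17 (6.17), Rps23 (5.30, a protein of the decoding centre), Rpl9 (5.26), Rpl36a (5.20), Rps29 (5.19), Rps13 (5.16) and Rpl28 (4.89). Their medians ran from 239 to 1002 RPKM in number-first and from 4.43 to 34 RPKM in number-last libraries. In none of these 7 did the forms overlap.

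In number-first libraries 4 genes were lower, among them Rpl4, Rps3 and Rplp0. Rpl4, which lines the peptide exit tunnel, was at 819 to 1049 RPKM in number-first control, 991 and 1122 in JAK2V617F, 999 and 1009 in Ezh2 loss, and 792 to 1049 in double mutant libraries. In number-last libraries it was at 2097 RPKM in the control, 1856 to 2148 in JAK2V617F and 1450 to 2101 in Ezh2 loss. No number-first library reached the lowest number-last one, and the difference was -0.85 (SE 0.10, limma adjusted p = 7.33e-07). Rps3, a protein of the messenger RNA entry site, was at 521 to 931 against 1000 to 1395 RPKM (-0.68, SE 0.12, adjusted p = 0.000485). Rplp0, the base of the ribosomal stalk and a common reference gene for PCR, was at 619 to 1058 against 1135 to 1467 RPKM (-0.60, SE 0.12, adjusted p = 0.000867). Rps3 did not pass within Ezh2 loss alone (0.0905).

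Other genes differed little. Rps14, the gene lost in 5q- syndrome, was the highest of the 77 under both forms, at 2809 ± 643 RPKM (SD, n = 15) and 3040 ± 273 RPKM (SD, n = 11). Rps26, which lies at the messenger RNA exit, was at 439.6 to 1235 against 702 to 1184 RPKM, with overlapping ranges (-0.11, SE 0.16, adjusted p = 0.767). The 4 other genes with the smallest differences were Rps9 (-0.03), Rpl22 (-0.05), Rplp1 (-0.08) and Rpl8 (0.10). The sign of these 5 differences turned under some settings or when 1 library was left out, so no direction is given for them. The order of the 77 genes by mean RPKM had a Spearman correlation of 0.67 between the forms.

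The remaining stalk and small subunit genes matched by name were both higher in number-first libraries. Rplp2 was at 550.1 to 1484 against 239.7 to 364 RPKM (1.86, SE 0.18), and Rpsa, also known as the laminin receptor, was at 159 to 330.0 against 23.1 to 46.5 RPKM (2.84, SE 0.20). Of the large subunit genes 33 of 46 were higher and 2 lower, and of the small subunit genes 20 of 31 were higher and 2 lower (backgrounds 5.69% higher and 2.48% lower).

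The same difference appeared in the balance of the subunits. The summed RPKM of the 31 small subunit genes over that of the 46 large subunit genes was 0.878 to 0.953 in the 15 number-first libraries and 1.25 to 1.38 in the 11 number-last libraries, with no overlap. Within a form the ratio of the genotypes overlapped. All 77 genes together made up 6.35 to 11.4% of the RPKM sum of a number-first library and 5.11 to 6.34% of a number-last one.

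**Figure D2:**
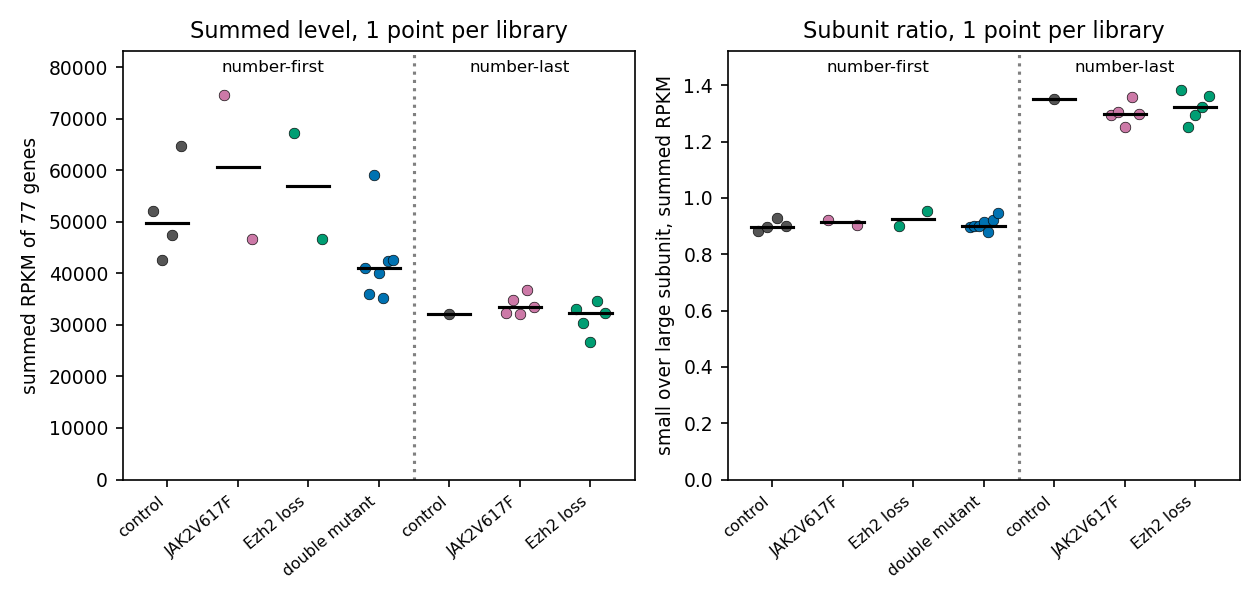
Left, summed RPKM of the 77 genes, and right, the summed RPKM of small over large subunit genes, with 1 point per library, a bar at each group's median and a dotted line between number-first and number-last libraries. The subunit ratio is 0.878 to 0.953 left of the line and 1.25 to 1.38 right of it, while the sum varies from 35218 to 74604 RPKM among number-first libraries and from 26759 to 36743 among number-last ones.

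How much a gene differed between the forms went with how close its nearest copy is. The coding sequence of each gene was compared with all GENCODE M21 transcripts (GRCm38) outside its own locus, and a copy was counted at 95% identity over 80% of the length. There were 573 such copies, 544 of them annotated as pseudogenes, for 72 of the 77 genes. The 5 genes with none included Rps3, Rpl8 and the paralogues Rps27l and Rpl39l. The table of RPKM values had a row under the gene symbol of 16 of the 573 copies.

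3 genes with copies show the range of closeness, each beside its closest copy, with 90 bases of coding sequence read 5' to 3' and capitals at the bases that differ between the pair. Rpl4 (chr9:64173375-64178666, + strand) and Gm5835 (chr1:143093347-143094616) were 96.9% identical over 1260 aligned positions, of which 39 differed, 1 of them in coding bases 1 to 90. Rpl23a (chr11:78180932-78183584, - strand) and Gm10335 (chr10:14523078-14523545) differed at 1 of 468 positions, shown in coding bases 203 to 292. Rpl5 (chr5:107900502-107909005, + strand) and Gm15500 (chr7:114705217-114706235) were identical over all 891 bases, so the pair below, coding bases 1 to 90, has no capitals.
Rpl4: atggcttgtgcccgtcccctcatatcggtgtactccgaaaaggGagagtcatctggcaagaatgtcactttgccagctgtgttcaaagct
Gm5835: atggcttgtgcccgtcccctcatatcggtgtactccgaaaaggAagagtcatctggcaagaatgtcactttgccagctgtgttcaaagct
Rpl23a: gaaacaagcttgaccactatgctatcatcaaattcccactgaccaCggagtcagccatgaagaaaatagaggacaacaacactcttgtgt
Gm10335: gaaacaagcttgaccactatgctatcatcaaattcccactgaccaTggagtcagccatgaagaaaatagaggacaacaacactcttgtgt
Rpl5: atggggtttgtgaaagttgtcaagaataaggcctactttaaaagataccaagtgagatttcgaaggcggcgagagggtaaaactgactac
Gm15500: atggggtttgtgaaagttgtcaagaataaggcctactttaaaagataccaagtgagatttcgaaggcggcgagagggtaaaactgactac

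In that order the differences between title forms were -0.85 (Rpl4), 7.22 (Rpl23a) and 5.32 (Rpl5). Those of Rpl4 and Rpl23a were the lowest and the highest of all 77 genes, so these examples do not stand for genes of like closeness. Over all genes, the median difference was -0.16 (range -0.68 to 0.28) in the 5 genes with no copy and 0.18 (-0.85 to 1.90) in 18 genes whose closest copy was 95 to under 99% identical. It was 2.14 (-0.61 to 7.22) in 33 genes with a closest copy of 99 to under 100%, and 3.64 (-0.57 to 5.32) in 21 genes with an identical copy. The 4 genes that were lower in number-first libraries were all among the 23 genes under 99%, of which 6 were higher. Of the 54 genes at 99% or more, 47 were higher and 0 lower. All 33 genes with a difference above 2 were among these 54. The Spearman correlation between identity of the closest copy and the difference was 0.65 over the 74 genes with a value for that identity. For the number of copies, over 77 genes, it was 0.50 (95% identity over 80% of the length), 0.59 (99% over 80%) and 0.45 (90% over 50%). For coding length it was 0.06 over 77 genes. Genes are not independent replicates, and these values are a description.

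**Figure D3:**
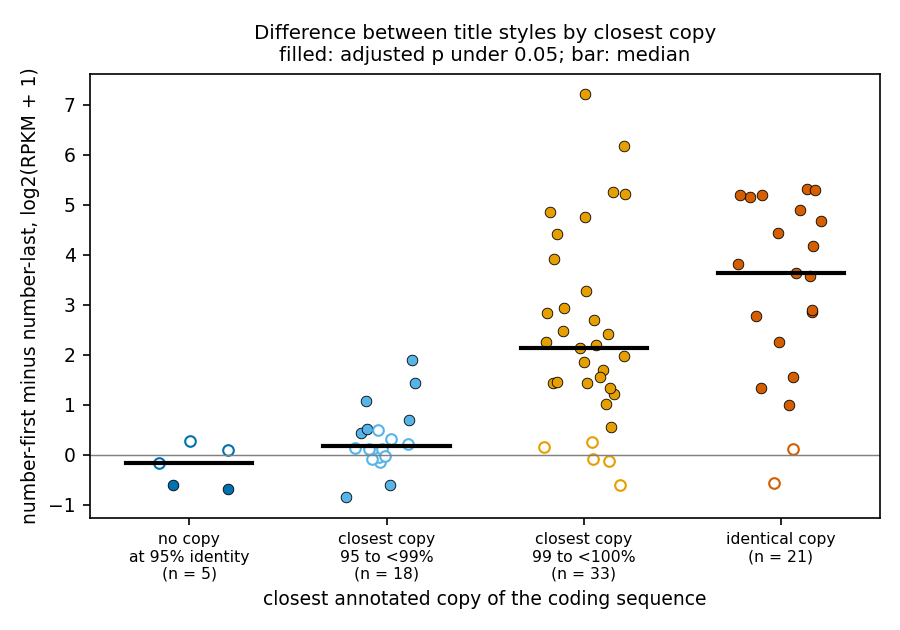
Difference between number-first and number-last libraries in log2(RPKM + 1) for each of 77 genes (vertical), in 4 classes by the identity of the closest annotated copy (horizontal), with filled points for adjusted p under 0.05 and a bar at the class median. Medians rise from -0.16 without a copy at 95% to 3.64 with an identical copy.

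The absolute level moved with the same classes. The 54 genes at 99% or more summed to 20381 to 44860.5 RPKM in number-first and 7526 to 10386 RPKM in number-last libraries. The 23 genes under 99% summed to 14836 to 29743 against 19233 to 26357 RPKM, and the ranges overlapped. Of the 54 genes, 7 did not pass between forms. Rpl30 (6.61 ± 1.65 RPKM, SD, n = 15), Rpl34 (15.7 ± 5.73) and Rps27 (21.9 ± 12.2) were low in number-first libraries as well. Their values in number-last libraries were 8.38 ± 3.39, 26.3 ± 12.5 and 36.0 ± 13.9 RPKM (SD, n = 11). The other 4 were abundant under both forms: Rpl41 with an identical copy (0.11, at 946 ± 282 against 1020 ± 109 RPKM), Rpl35 (0.15, at 753 ± 164 against 782 ± 139), Rpl6 (0.26, at 232 ± 55.5 against 232 ± 34.4) and Rps26 (-0.11). The sources used here do not say how reads that match several places were counted. Its part in these differences was not tested, and the level of any gene with a close copy is uncertain.

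Rows under the gene symbol of a copy were few. The highest was that of Med21, a gene with a retained-intron transcript 97.39% identical to Rps26. It was at 128 RPKM on average in number-first and 181 RPKM in number-last libraries. That row is for the gene, so it is not the level of that transcript alone. BC004004, 98.54% identical to Rpl21, was at 63.4 and 53.9 RPKM. The pseudogene Gm6654, also 97.39% identical to Rps26, was at 3.10 to 12.1 RPKM in number-first and 81.6 to 126 RPKM in number-last libraries. Gm5148, identical to Rps23 over 92.8% of its length, was at 23.6 and 47.8 RPKM on average. Named pseudogene rows were added to Rpl31, Rpl34, Rplp2, Rps15a and Rps19. The difference between forms stayed at -0.61 for Rpl34, 1.86 for Rplp2, 0.49 for Rps15a and 0.43 for Rps19. That of Rpl31 moved most of these 5, from 3.58 to 3.44. Adding Gm6654 to Rps26 moved its difference from -0.11 to -0.27. These shifts were not tested.

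Paralogues were set beside their parents. Rps27l, a p53-induced relative of Rps27, was at 436 to 1128 RPKM in number-first and 729 to 1313 RPKM in number-last libraries, while Rps27 was at 4.47 to 47.3 and 5.07 to 54.9 RPKM. RPKM is per length, so the paralogue's level stood above that of the parent in every library. At 95% identity over 80% of the length Rps27 has 4 copies, 1 of them identical, and Rps27l has none. At 90% over 50% of the length Rps27 has 10 and Rps27l has 5. Rpl39l, a relative of Rpl39 known from testis, was listed at 0 in 20 libraries and reached 23.7 RPKM in JAK2V617F replicate 7.

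In double-mutant against control HSCs, within number-first libraries, 0 of 77 genes passed, as did 0 of the 12116 tested (limma, adjusted p under 0.05, background 0%). The differences were small and mostly below 0. 75 of 77 were below 0 (background 51.3%), with a median of -0.30 against -0.01 over all genes. Of the 77, 17 had an unadjusted p under 0.05, all lower (background 3.62%). The genes varied together within genotype (median pairwise correlation 0.80 over the number-first libraries). Counts of genes below 0 are therefore not counts of independent results, here and in the other number-first comparisons, and the backgrounds do not allow for that. For 0 of the 77 did the groups not overlap, in either direction (backgrounds 0.38% lower and 0.338% higher). The median was -0.18 without control replicate 4 and -0.38 without double-mutant replicate 3. The summed RPKM was 42606.5, 47399, 52015 and 64740 in controls, and 35218 to 59042 with a median of 40939 in double mutants, so the groups overlapped. In the 7 double mutants the neutrophil sum was 604, 55.8, 26708, 52098, 47.0, 68.3 and 860 RPKM in replicate order. Without replicates 3 and 4, the 2 with the highest sums, 76 of 77 genes were below 0, with a median of -0.40 and 0 passing.

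Rpl39, a short protein of the exit tunnel on the X chromosome, had the smallest p. It was at 523, 394, 549.8 and 716 RPKM in controls and at 328, 276, 402, 224, 218, 281 and 239 RPKM in double mutants. Only the highest double mutant reached above the lowest control. The difference was -0.95 (SE 0.22) and did not pass (limma adjusted p = 0.44). Rps27l (-0.53, SE 0.17, adjusted p = 0.709) and Rpl35a (-0.52, SE 0.18, adjusted p = 0.72) followed. Rps27l, which has no copy at 95% identity over 80% of the length, was at 893, 724, 922 and 874 RPKM in controls. In double mutants it was at 436 to 831 RPKM, with a median of 567. Of the 23 genes with a closest copy under 99% or none, 22 were below 0 with a median of -0.23, and of the 54 at 99% or more, 53 were below 0 with a median of -0.31.

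**Figure D4:**
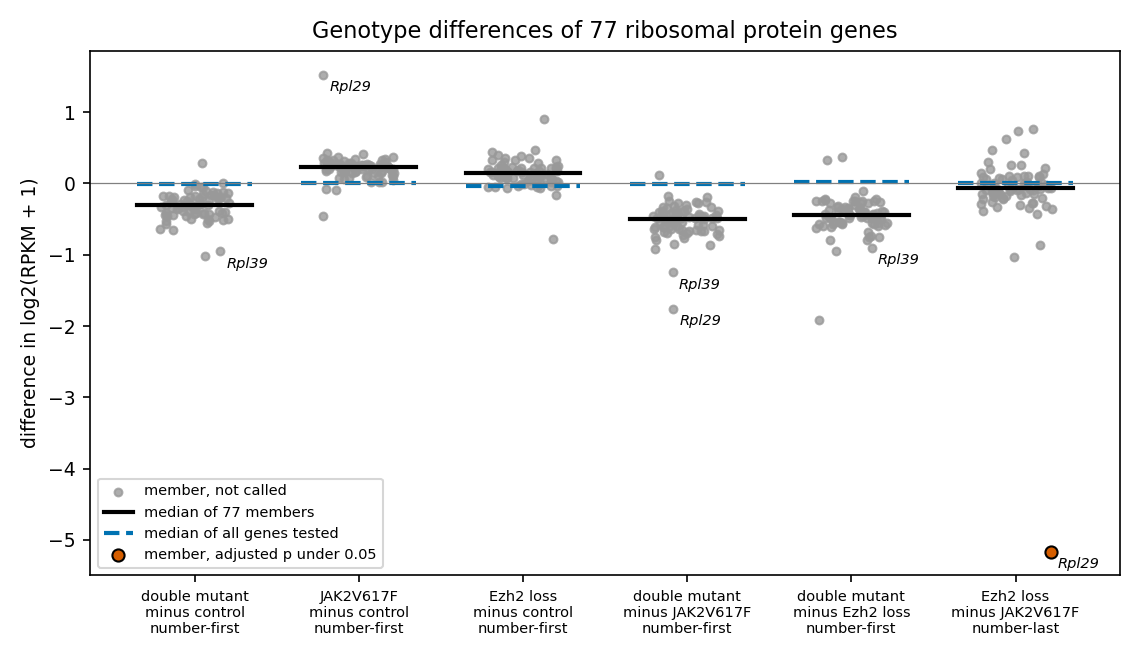
Difference in log2(RPKM + 1) of each of 77 genes (vertical) in 6 genotype comparisons within 1 title form (horizontal), with a black bar at the median of the 77 and a dashed blue bar at the median of all genes tested. Only Rpl29 in Ezh2 loss against JAK2V617F, number-last, passed, at -5.16, and the first 3 comparisons share the control libraries.

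The single mutants had 2 number-first libraries each. Against the same 4 controls, 0 of 77 genes passed in JAK2V617F and 0 in Ezh2 loss (backgrounds 0%). At an unadjusted p under 0.05 stood 1 of 77 genes in JAK2V617F (background 2.76%) and 0 in Ezh2 loss (background 6.65%). Medians were 0.23 and 0.15, with 3 of 77 below 0 in JAK2V617F (background 49%) and 14 in Ezh2 loss (background 52.6%). The summed RPKM was 74604 and 46634 in JAK2V617F and 67206 and 46582 in Ezh2 loss, so each pair overlapped the control range. The neutrophil sum in the same libraries was 80.6 and 17655 RPKM in JAK2V617F and 4635 and 14675 RPKM in Ezh2 loss, against 43.7 to 388 RPKM in controls and a median of 604 RPKM in double mutants. Its part in these comparisons was not tested. Without JAK2V617F replicate 1 the first median was -0.11, and without Ezh2 loss replicate 3 the second was -0.11, so no direction is given. The genes with the smallest p were Rpl29 (1.53, SE 0.67), Rpl3 (0.33, SE 0.18) and Rps20 (0.41, SE 0.27) in JAK2V617F, each with adjusted p = 1. In Ezh2 loss they included Rps9 (0.44, SE 0.23, adjusted p = 0.781) and Rps20 (0.47, SE 0.27).

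Double mutants were also set against each single mutant. Against JAK2V617F 0 of 77 genes passed (background 0%), 76 were below 0 (background 51%) and the median was -0.50. Against Ezh2 loss 0 of 77 passed (background 0.066%), 75 were below 0 (background 48.5%) and the median was -0.44. Groups did not overlap for 5 and 4 genes, all lower in double mutants (backgrounds 3% and 3.43%). Leaving out the higher of the 2 single-mutant libraries (JAK2V617F replicate 1, Ezh2 loss replicate 3) took the medians to -0.18 in both comparisons. Rpl39 had the smallest p in both, at -1.25 (SE 0.28, adjusted p = 0.259) and -0.90 (SE 0.28, adjusted p = 0.319). It was at 947 and 453 RPKM in JAK2V617F and at 603 and 440.1 RPKM in Ezh2 loss, all above the highest double mutant. The comparisons share the double-mutant libraries.

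Rpl29 alone passed in Ezh2 loss against JAK2V617F within number-last libraries, where 1 of 77 genes was called (background 0.099%). Rpl29 (chr9:106429454-106431568, + strand) is a large subunit protein that is not essential in the mouse. It was at 103, 90.8, 99.7, 132 and 112 RPKM in JAK2V617F, and at 52.1, 1.5, 0.36, 0.23 and 0.11 RPKM in Ezh2 loss. The groups did not overlap, 4 of 5 Ezh2 loss libraries were at 1.5 RPKM or below, and the only number-last control was at 6.71 RPKM. The difference was -5.16 (SE 0.85, limma adjusted p = 0.0376).

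The call did not hold under every setting. It was lost with a pseudocount of 0.1 (adjusted p = 0.0732), without a filter on low values (0.378), without trend and robust variances (0.176), and without any 1 library other than Ezh2 loss replicate 1 (0.065 to 0.135). Without that library, the highest of its group, the difference was -6.20 (adjusted p = 1.2e-05). In number-first libraries Rpl29 was at 237 and 137 RPKM in JAK2V617F, 183 and 28.8 in Ezh2 loss, 34.7, 70.4, 143 and 41.9 in control and 25.4 to 95.5 in double mutants. The same contrast there was -1.29 (SE 0.78, adjusted p = 0.942), and the number-last contrast minus the number-first one was -3.87 (SE 1.35, adjusted p = 0.976). Rpl29 has 28 close copies, the nearest 99.76% identical, so its level is uncertain. The neutrophil sum was 72.9 to 125 RPKM in number-last JAK2V617F and 404 to 38184 RPKM in Ezh2 loss, where 8 of 10 markers had a mean of at least 1 RPKM. Lcn2, Mmp8, Retnlg, Elane and Mpo were at 0 in every number-last JAK2V617F library. The sum of 7 erythroid markers was 2.46 to 32 RPKM in JAK2V617F, with Hbb-b1 and Hba-a1 among those at 0 in every library, and 33.0 to 6084 RPKM in Ezh2 loss, with Hba-a1 at 0. Neither sum overlapped between the groups, and their part in the difference was not tested. In Ezh2 loss replicates 1, 2, 5, 6 and 7 the neutrophil sum was 30049, 4737, 404, 38184 and 26813 RPKM. The erythroid sum was 1064, 3478, 1666, 6084 and 33.0 RPKM in the same order. Rpl29 was at 52.1, 1.5, 0.36, 0.23 and 0.11 RPKM in that order.

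**Figure D5:**
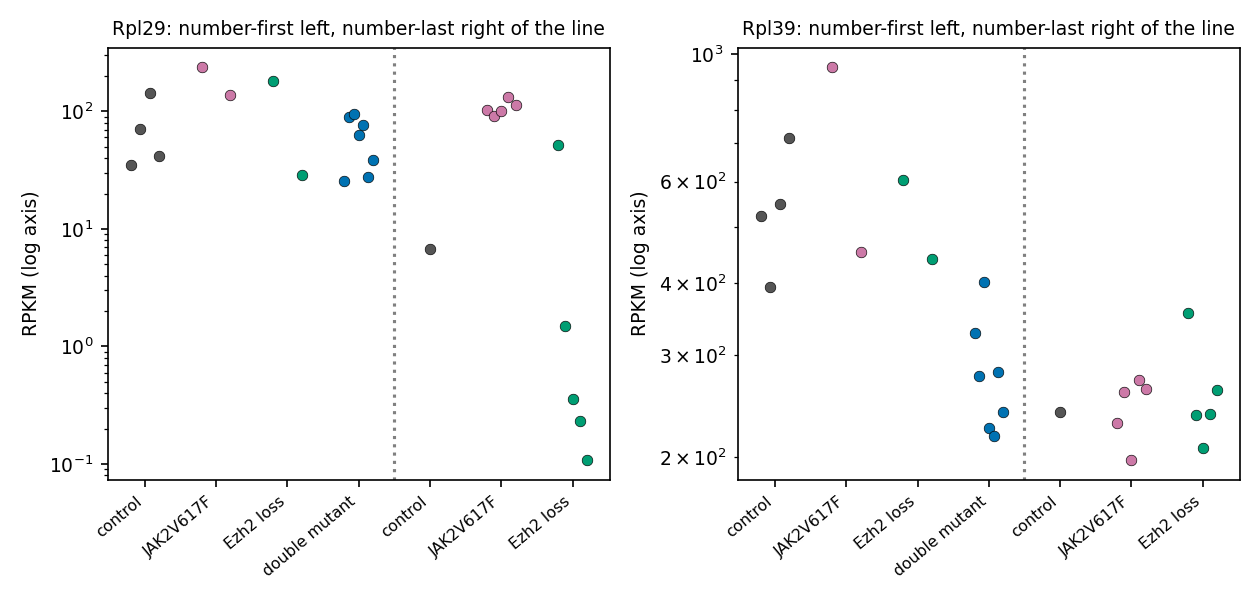
RPKM of Rpl29 (left) and Rpl39 (right) in each of 26 libraries (vertical, log axis) by genotype, with number-first libraries left and number-last libraries right of the dotted line. Rpl29 is at 0.11 to 1.5 RPKM in 4 of 5 number-last Ezh2 loss libraries, and Rpl39 is at 218 to 402 RPKM in double mutants against 394 to 716 in number-first controls.

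The other 76 genes did not pass in that comparison. The median of all 77 was -0.07, against 0.01 over all genes. The next smallest p were those of Rps3 (-0.27, SE 0.10, adjusted p = 0.612) and Rps26 (-0.26, SE 0.12, adjusted p = 0.761). Rps3 was at 1231 to 1395 RPKM in JAK2V617F and at 1000 to 1235 RPKM in Ezh2 loss, so a single Ezh2 loss library reached the JAK2V617F range.

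Genes around the ribosome were read from lists. Between title forms, where the background is 8.18% (5.69% higher and 2.48% lower), 7 of 76 mitochondrial ribosomal protein genes passed (4 higher, 3 lower, median -0.02), a share near that background, and 5 of 38 ribosome biogenesis genes (4 higher, 1 lower, median 0.00). Of 22 other ribosomal protein and TOP genes 9 passed (6 higher, 3 lower). Among them Fau (3.27), which encodes Rps30 fused to a ubiquitin-like protein, Tpt1 (2.43) and Naca (1.77) were higher. Of 21 initiation and mTORC1 genes 2 passed, Eif1 (2.38) and Eif4a1 (0.77). Of 10 genes of Diamond-Blackfan anaemia and 5q- syndrome, all of them ribosomal protein genes counted above, 8 were higher. In each of the 6 genotype comparisons 0 genes of these lists and of a 10-gene p53 response list passed. In double mutant against control the medians were -0.17 for the mitochondrial list (61 of 76 below 0), -0.21 for the other TOP genes (19 of 22), -0.05 for biogenesis (23 of 38) and -0.12 for initiation and mTORC1 genes (16 of 21). Over all genes the median was -0.01 and the background below 0 was 51.3%, so the biogenesis list lay near it. The lists were not tested as sets, and their genes share libraries, so these counts are a description.

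Within a title form and genotype, the 77 genes varied together in number-first libraries and less so in number-last ones. The median pairwise Pearson correlation of deviations from the genotype mean was 0.80 over 15 number-first libraries and 0.21 over 10 number-last libraries (2926 pairs each). Pairs share library and depth, so these are descriptions. The correlation of a gene with the median of the others was at least 0.8 for 65 genes in number-first libraries and for 7 in number-last ones. Neither measure was computed over all genes, so no background stands beside them. In groups of 2 libraries the deviations mirror each other, so few libraries can weigh heavily. Number-last libraries had lower estimated depth (median 11.3 against 19.4 M reads). There 28 of the 77 genes had a mean under 50 RPKM, against 4 in number-first libraries. The part of depth and level was not tested. The genes under 0.5 in number-first libraries were Rps27 (-0.23), Rpl34 (-0.21), Rpl30 (-0.15), Rpl5 (-0.04), Rpl29 (0.26) and Rps27l (0.47). Spread within genotype in number-first libraries was smallest for Rpl4 (SD 0.14 in log2) and largest for Rpl39l (1.39), Rpl29 (0.95) and Rps27 (0.91).

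The annotated starts were read for pyrimidine runs. The RefSeq promoter table of this build matched 57 of the 77 genes. A run of at least 5 bases of C or T lay within 10 bases of a start, read on the gene's strand only, in 37 of 57 (64.9%), against 39.7% of 27025 genes in the table. Counted per start, it was 39 of 68 (57.4%) against 35.8%. The share was 43.9% against 21.6% within 5 bases and 86.0% against 62.4% within 20 bases. A match describes the letters in the window and not a working TOP motif.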

How the data were processed

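Per the labels, HSCs were sorted from bone marrow and sequenced by Smart-Seq2. The authors deposited 1 table of RPKM values per gene and library, with 26 columns, each mapped to its sample by name, and 0 left unmapped. The submitters' processing notes name Subread 1.5.0, SAMtools 0.1.19 and STAR 2.4.2a and the builds mm10 and GRCm38. The annotation, the tools' settings and the handling of reads with several matches are not given in these sources. The members, gene lists and tests were chosen with earlier results of these data known.

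The 12116 genes that reached RPKM 1 in 5 or more libraries were tested with limma 3.58.1 in R 4.3.3 on log2(RPKM + 1), with trend and robust moderation, two-sided, and Benjamini-Hochberg adjusted over all genes tested, with a call at adjusted p under 0.05. Genotypes were fitted within 1 title form (4 means over 15 libraries, 3 over 11). The contrast between forms is the mean of the JAK2V617F and Ezh2 loss differences in 1 fit of 7 means. Differences are on the log2(RPKM + 1) scale, which understates changes of low genes. On simulated data with 100 genes changed by 1 in log2, the fit recovered 20% in double mutant against control and 21% in Ezh2 loss against JAK2V617F, number-last, and at a change of 3, simulated in the same fits for another 100 genes, it recovered 87% and 90%. Of the 115 and 121 calls of these fits, 8 (6.96%) and 10 (8.26%) were false.

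The design foresaw a search for copies in a genome. In its place, coding sequences were searched with blastn 2.17.0+ among GENCODE M21 transcripts, which cannot show copies without an annotated transcript. Promoters are those of RefSeq (GRCm38.p6). Named genes are Rplp0, Rps26, Rps3, Rpl4, Rplp1, Rplp2 and Rpsa, the called or, failing 5 calls, the 3 smallest p in each genotype comparison, the 10 largest differences each way and the 5 smallest between forms (mean RPKM of at least 10 in both), the 5 extremes of level and of spread, and paralogues with their parents. Others, such as Fau or Rpl11 beside Rpl5, were named from the lists or after their values were seen. Some genes that the rule names are not reported here. Depth was estimated from RPKM steps and exon lengths. No 2 libraries shared a non-zero value in any gene (0 equal values in any pair). Alternatives covered the pseudocount, filter, scaling, libraries fitted, weights, moderation and each library left out. The fits without double-mutant replicates 3 and 4 and the sums with Gm-named pseudogene rows were added after the data were seen.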

Additional observations from a re-analysis of the deposited data

Results flagged for a closer look

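For 42 named genes in each genotype and title form with 4 to 10 libraries, 167 sets of values were read for a library that stood apart from the rest by Dixon's criterion. In 19 sets (11.4%) one did, where chance gives about 5% for normally distributed values of genes not chosen by spread. Some of the 42 genes were named for their large spread in these libraries, so the shares cannot be compared. The sets share libraries.

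In 11 of the 19 the library was double-mutant replicate 3, always the highest of 7. It had Rplp1 at 1852 RPKM (nearest 1199), Rpl32 at 2594 (1876), Rps18 at 1909.9 (1263), Rps9 at 1572 (1194) and Rps29 at 1225 (955). It also had Rpl8 at 958 (694), Rpl9 at 945 (706), Rps20 at 881 (599), Rpl36a at 679 (442), Rpl11 at 584 (389) and Rpl28 at 311 RPKM (239). Its neutrophil marker sum was 26708 RPKM, and that of replicate 4, whose ribosomal protein sum was 40120 RPKM, was 52098.

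In number-last Ezh2 loss, replicate 1 was highest for Rpl29 (52.1 RPKM, nearest 1.5) and Rps29 (52.8, nearest 34). Replicate 2 was lowest for Rpl3 (95.5, nearest 116), replicate 5 for Rpl32 (1548, nearest 1949) and replicate 6 for Rps27 (5.07, nearest 36.4). Rpl39l was at 7.64 RPKM in replicate 7, and listed at 0 in the other 4 libraries. In number-first control, replicate 4 had Rpl39l at 15.6 RPKM, with 0 in the other 3. In number-last JAK2V617F, replicate 4 was highest for Rps25 (464, nearest 352).

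The difference between Ezh2 loss and JAK2V617F did not differ between title forms for any of the 77 genes at adjusted p under 0.05 (0 genes by limma, 1 at unadjusted p under 0.05, which was Rpl29).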

How the results depend on the processing

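The number of genes called between title forms stayed between 49 and 59 over all settings and 52 to 57 with 1 library left out. In the 5 number-first genotype comparisons it was 0 under every setting tried. The 1 call of Ezh2 loss against JAK2V617F, number-last (Rpl29) became 0 with a pseudocount of 0.1, without the filter on low values and without trend and robust moderation, and ranged from 0 to 1 with 1 library left out. Quantile normalization moved the median of all genes between forms from 0.15 to -0.05. The cause of each change was not tested.

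Differences that turned sign were all small and not called. Between forms, quantile normalization gave Rps9 0.0435, Rplp1 0.00405 and Rpl8 -0.075, the additive fit gave Rpl8 -0.0166, JAK2V617F alone gave Rpl8 -0.0732, and Ezh2 loss alone gave Rps9 0.0586 and Rpl22 0.0575. The additive fit also called Rps9 (-0.29) and Rps26 (-0.39). With 1 library left out the ranges were -0.0831 to 0.28 for Rpl8, -0.26 to 0.17 for Rpl22, -0.17 to 0.12 for Rps9, -0.33 to 0.17 for Rplp1 and -0.32 to 0.0893 for Rps26. In JAK2V617F against control, Rps20 ranged from -0.0301 to 0.85.

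No paired analysis was possible because replicate numbers follow deposition order and pair no libraries. A copy at 90% identity over 50% of the length was found for 74 genes in place of 72. Single-mutant number-first groups hold 2 libraries, number-last controls 1, and depth per gene is known only as an estimate.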
